A study of Mustela putorius furo with 7 samples.

Results

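Among the open-chromatin regions of ferret pancreatic ductal epithelial (PDE) cultures, 4263 of 95129, or 4.48%, carried a peak in every culture that lacked CFTR and in no wild-type culture. They were chosen by peak calls alone. A region was a member when at least 1 bp of it was covered by a called peak in all 3 CF peak lists and in none of the 4 WT lists. CF cultures came from newborn ferrets, 1 to 3 days old, of genotype CFTR KO/KO, a model cloned from fibroblasts whose CFTR gene had been disrupted. WT cultures came from newborn ferrets of the same age with intact CFTR. Cells of both genotypes were passaged 10 times, seeded on coated inserts and held at an air-liquid interface during 14 days, after which roughly 50000 cells from a culture entered the assay. Donors are numbered per genotype in the labels, whereas the methods of the study name equal donor numbers for both. Whether each WT library stands for its own donor is not settled, and the spread between libraries may be partly technical. The duct identity of the cultures was not checked here, because the regions carry no gene names.

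Bulk ATAC-seq exposes nuclei to a transposase that inserts sequencing adapters where DNA is not covered by nucleosomes. Promoters, enhancers and insulators in use by a cell usually lie in such accessible DNA, and accessible elements far from promoters are those that differ most between cell types. CFTR is the anion channel of the apical duct membrane and drives bicarbonate-rich fluid secretion. The duct epithelium shares its developmental origin with the endocrine pancreas, and the comparison of CF with WT PDE cultures was made to learn whether their chromatin differs. In bulk cultures, an element open in fewer cells and an element less open in each cell give the same lower signal.

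The signal of a region is its number of reads multiplied by a factor set for the library by the authors, so it is called scaled reads here. CF libraries held 8469877 to 11047724 reads in the 95129 regions and WT libraries 3226534 to 8172005, and every CF library was deeper than every WT library. A single read stood for a signal of 0.562 to 0.784 in CF and of 0.888 to 3.08 in WT libraries, and no value was below 1 read. A value of 1 read is thus a minimum, which may also stand for no reads at all. The replicate numbers of the matrix columns and of the peak lists did not match. The list with the most similar pattern of peaks had the genotype of the column in 7 of 7 cases and its number in 1 of 7. The most similar lists ran in reverse order of number within each genotype. Column WT2 was thus most similar to list WT3 (r = 0.66) and column WT3 to list WT2 (r = 0.57). Matrix columns and peak lists are therefore named separately, and no value below joins a column to the list of the same number.

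In CF cultures the 4263 regions were of ordinary strength for this data set. Their median signal was 29.0 scaled reads in column CF1, 26.9 in CF2 and 26.4 in CF3, next to a median of 25.5 for the CF mean over all 95129 regions. In WT cultures the median was 8.80 in WT1, 6.22 in WT2, 9.23 in WT3 and 6.70 in WT4. The medians of the 3 CF columns thus lay close together and above those of all WT columns. The middle part of the regions, from the lower to the upper quartile, ran from 21.2 to 41.6 in CF1 and from 3.55 to 11.5 in WT2. Regions with a peak in all 7 lists, of which there were 25143, were stronger in both genotypes, with a median mean signal of 98.3 in CF and 114 in WT. The 989 regions with a peak in all 4 WT lists and no CF list had a median of 53.1 in WT and 8.37 in CF. The level left in the genotype without calls was thus alike in both sets, near 8 scaled reads, while the level in the genotype with calls was 27.7 in the CF set and 53.1 in the WT set. Members took 2.27% to 2.28% of the reads in regions of each CF library and 0.521% to 0.712% in WT libraries. Since peak calls and signal come from the same reads, these differences restate the choice of regions and were not tested.

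**Figure D1:**
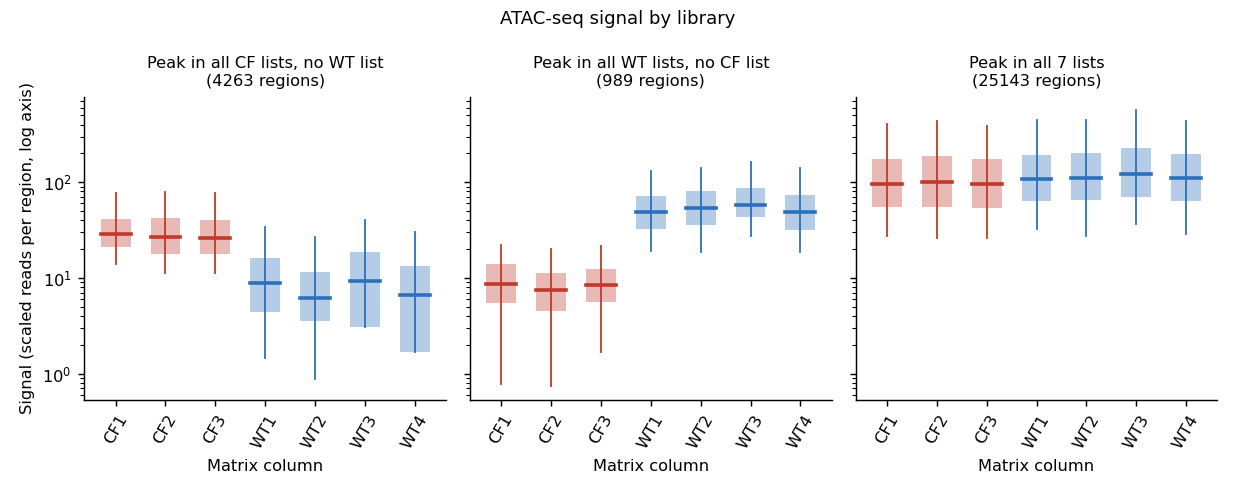
Signal in scaled reads per region (y axis, log scale) in each matrix column (x axis; CF red, WT blue) for 3 sets of regions defined by peak calls, with a thick line for the median, a box for the quartiles and a thin line from the 5th to the 95th percentile over regions. In the left panel the CF medians lie between 26.4 and 29.0 and the WT medians between 6.22 and 9.23.

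The difference between the genotypes varied widely among the members. The median difference of mean log2(signal + 1), CF minus WT, was 1.76, with quartiles of 1.20 and 2.40 and a range from −0.57 to 5.62. It exceeded 1 in 3501 members, or 82.1%, against 15.3% of all regions, and exceeded 2 in 1692, or 39.7%, against 3.43%. All 3 CF columns lay above all 4 WT columns in 3021 members, or 70.9%, against 11.5% of all regions. A limma fit over all 95129 regions called members more accessible in CF at an adjusted p under 0.05 and a log2 change above 1. It so called 1792 members (42.0%), against 4.31% of all regions. The fit called 0 members less accessible, against 5954 of all regions. The members not called more accessible had peak calls that separated the genotypes but no call on their signal. On reads recovered from the scaled values, edgeR called 2085 members against 5.41% of all regions, and DESeq2 2153 against 5.40%. The members were selected on the same contrast, and nothing is read from these shares. With column CF1, CF2 or CF3 left out of the limma fit, 695, 675 or 661 members were called. The shares called over all regions were then 1.55%, 1.43% and 1.46%.

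**Figure D2:**
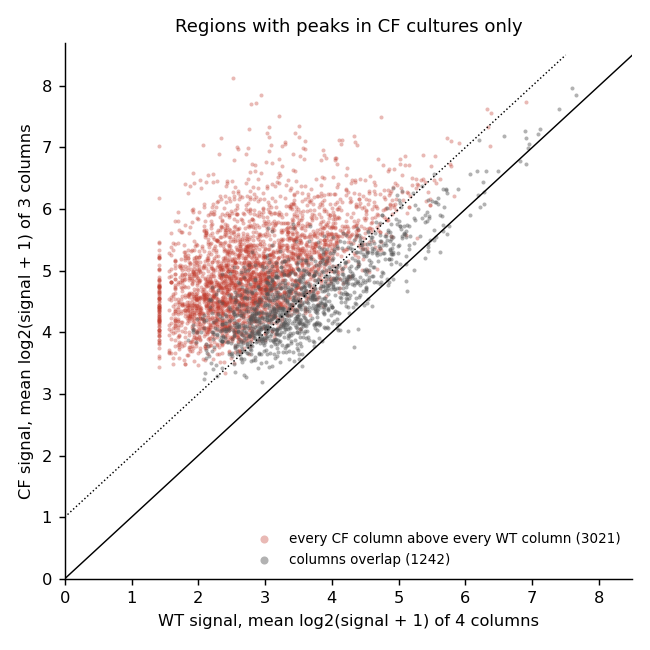
Mean log2(signal + 1) of the 4263 members in 4 WT columns (x axis) and 3 CF columns (y axis), with a point per region, red where every CF column lies above every WT column and gray where they overlap. The solid line marks equal signal and the dotted line a log2 difference of 1, which 3501 members exceed, and the column of points at the left holds the 92 regions at the minimum of 1 read in every WT column.

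In the 1242 members whose columns overlapped, most often a single WT column reached into the CF range. In 853 of them 1 WT column reached the lowest CF column, in 300 it was 2 columns, in 69 it was 3, and in 20 all 4 did so. Of the 853 single cases, WT3 accounted for 420 and WT1 for 269, and WT2 for 39. WT3 is the shallowest column, where each read counts for 3.08 scaled reads, and WT2 the deepest WT column. The signal of 1 read was made alike by thinning every library at random until it was the same in all 7. Totals then ran from 2019447 to 2162127 reads in CF and from 2367028 to 3226534 in WT libraries, so that WT libraries were the deeper ones. Members then had a median of 9 reads in each CF column and of 2 or 3 reads in each WT column. All CF columns then lay above all WT columns in 2256 members, or 52.9%, against 8.11% of all regions after the same thinning. The median log2 difference was 1.64 after thinning.

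Absence of a WT peak did not mean absence of WT reads. Column WT1 was at its minimum of 1 read in 18.3% of the members, WT2 in 13.1%, WT3 in 40.8% and WT4 in 28.2%. In 1713 members, 40.2%, every WT column held more than 1 read. All 4 WT columns were at the minimum in 92 members (2.16%), where the median CF signal was 21.1. With each WT library set to a floor of 3 reads, the CF signal of these 92 members was at least 1.87-fold to 24.1-fold higher, with a median bound of 3.95-fold. With WT1, WT2 or WT4 left out, 199, 223 or 139 members were at the minimum in the remaining WT columns. A region at the median CF level of the members would hold 31.2 reads in column WT2 and 9.01 in WT3, while the medians found there were 7 and 3 reads.

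The WT signal left in the members was set beside that of regions with WT calls, whatever their CF calls. Of the 18124 regions with a peak in 1 WT list, 8486 had a peak in only 1 CF list. The mean WT signal of the members exceeded the 5th percentile of regions with a peak in 1 WT list, 5.77, in 71.6% of cases, and the median of those regions, 12.7, in 27.3%. It exceeded the 5th percentile of regions with a peak in 2 WT lists, 10.1, in 39.4%. For regions with a peak in all 4 WT lists that percentile, 34.6, was exceeded in 129 members, or 3.03%. Among regions with a peak in all 3 CF lists, the WT signal rose in steps with the number of WT lists that held a peak. Its median was 8.49 with no WT list, 16.2 with 1 list, 24.8 with 2, 41.2 with 3 and 114 with all 4. The CF signal of the same sets rose less at first, from 27.7 to 29.4, 33.3, 43.4 and 98.3. The median log2 difference accordingly passed from 1.76 at no WT list to 0.95, 0.51, 0.16 and −0.16. The 4485 regions just outside the rule, with a single WT call, thus had a CF signal close to that of the members and a higher WT signal. On the other border, the 7685 regions with a peak in only 2 CF lists and no WT list had a median CF signal of 14.8 and a WT signal of 6.52.

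**Figure D3:**
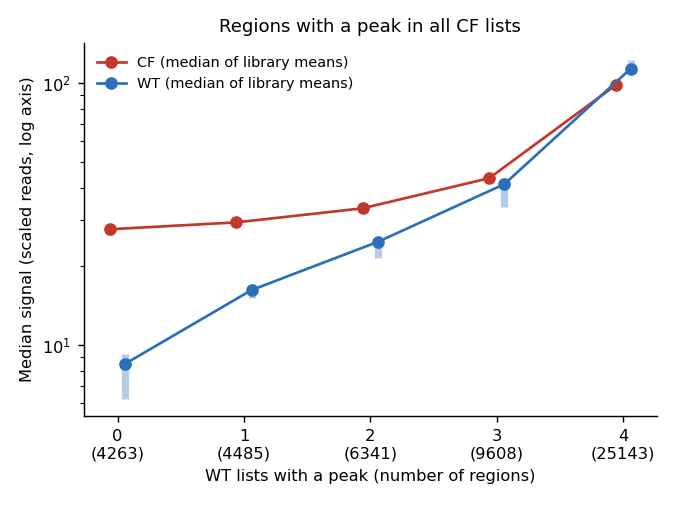
Median signal in scaled reads (y axis, log scale) of regions with a peak in all 3 CF lists, by the number of WT lists with a peak (x axis, number of regions in brackets), as the median of the CF (red) and WT (blue) means, with a pale bar from the lowest to the highest median of a single column. The CF level lies between 27.7 and 43.4 from 0 to 3 WT lists while the WT level climbs from 8.49 to 41.2.

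The members with the highest WT signal were high in both genotypes. On GL897991, from 1221 to 1474, the signal was 318, 200 and 189 in CF1, CF2 and CF3 and 257, 129, 240 and 203 in WT1 to WT4. The lowest CF column there lay below 3 of the 4 WT columns. On GL898180, from 19 to 562, CF columns had a mean of 250 ± 31.0 (SD, n = 3) and WT columns of 198 ± 49.8 (SD, n = 4). The regions on GL897531 from 31115 to 31666, on GL897386 from 227977 to 228238 and on GL897099 from 3459441 to 3459693 had mean CF signals of 199, 158 and 150.5 and mean WT signals of 179, 144 and 138. A peak had been called in at least 1 WT list only 203 to 470 bp from the edge of each of these 5 regions. Their fold enrichment over the local background, as MACS2 gives it, was low, from 1.76 to 3.18 in the 3 CF lists. Their −log10 q-values were not uniformly low, from 10.8 to 17.6 on GL897991, GL898180 and GL897099 and from 2.20 to 7.68 on GL897531 and GL897386. Low enrichment was also frequent among the 129 members above the 5th percentile of regions with 4 WT calls. The median fold enrichment of their weakest CF peak was 2.93, against 4.09 in the other 4134 members, and it lay under 3 in 73 of 129 (56.6%) against 235 (5.68%). A WT peak stood within 0.5 kb of 38 of them (29.5%), against 410 (9.62%) of all members.

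Peak scores placed the members in the middle of the CF lists. In list CF1 their peaks had a median fold enrichment of 4.79 and a median −log10 q-value of 7.12, in CF2 of 4.90 and 6.78, and in CF3 of 4.70 and 5.98. Ranked by p-value, the median member peak stood at percentile 54.1 of list CF1, 52.8 of CF2 and 43.9 of CF3. The corresponding peaks of regions with calls in all 7 lists stood at percentile 82.3 to 86.6, with a median fold enrichment of 7.49 to 8.14. Members were rare among the strongest calls, with 49, 49 and 20 peaks above percentile 90 of lists CF1, CF2 and CF3. The 4485 regions with a peak in all 3 CF lists and 1 WT list were also rare there, with 44, 34 and 18 peaks. Only 12 members were above that percentile in all 3 lists. These 12 had a median CF signal of 127 and a WT signal of 8.04, and all of their CF columns lay above all WT columns, against 11.5% of all regions.

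Each member depends on its weakest CF peak, since 3 calls were required. The −log10 q-value of that peak had a median of 4.44, lay under 3 in 742 members (17.4%) and reached 10 in 356 (8.35%). List CF3, the shortest CF list with 79014 peaks, gave the lowest-ranking peak of 2082 members. Members were put in 5 groups of equal size by their weakest CF peak. From the weakest to the strongest group the median CF signal was 21.3, 23.2, 26.0, 29.2 and 47.7. The median WT signal of the same groups was 8.42, 8.03, 8.46, 8.51 and 9.13. The median log2 difference was 1.45 in the weakest and 2.46 in the strongest group. All CF columns lay above all WT columns in 57.6% and 90.0% of these groups, against 11.5% of all regions. Peak strength and CF signal come from the same reads, and the rule excluded WT calls. The rise of the difference over the groups thus restates their order and was not tested. The 356 members with a weakest −log10 q-value of at least 10 had a median log2 difference of 2.95. In 340 of them (95.5%) all CF columns lay above all WT columns, against 11.5% of all regions.

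The position of the summit, the base with the most reads in a peak, was not used to choose the members. The 3 CF peaks had to overlap the same region, however, which limits how far apart their summits can lie. In the 4123 members with a single peak in each CF list, the summits of the 3 lists lay within a median of 108 bp, and within 100 bp in 1956 members (47.4%). The span was 152 bp in the weakest and 67.0 bp in the strongest of the 5 groups. In regions with calls in all 7 lists it was 63.0 bp, and in regions with 1 WT call 104 bp. The 3 CF peaks shared a median stretch of 211 bp, 47.3% of the region, and in 157 members no base was covered by all 3 of the strongest peaks. The CF columns varied little in level, with a median coefficient of variation of 20.9% (n = 3), and the WT columns more, with 61.8% (n = 4). Across members, Pearson's correlation of log2 signal ran from 0.79 to 0.82 between CF columns, from 0.37 to 0.53 between WT columns and from 0.25 to 0.38 between genotypes. The points share their libraries, and WT columns held few reads per member, so these values are descriptions.

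**Figure D4:**
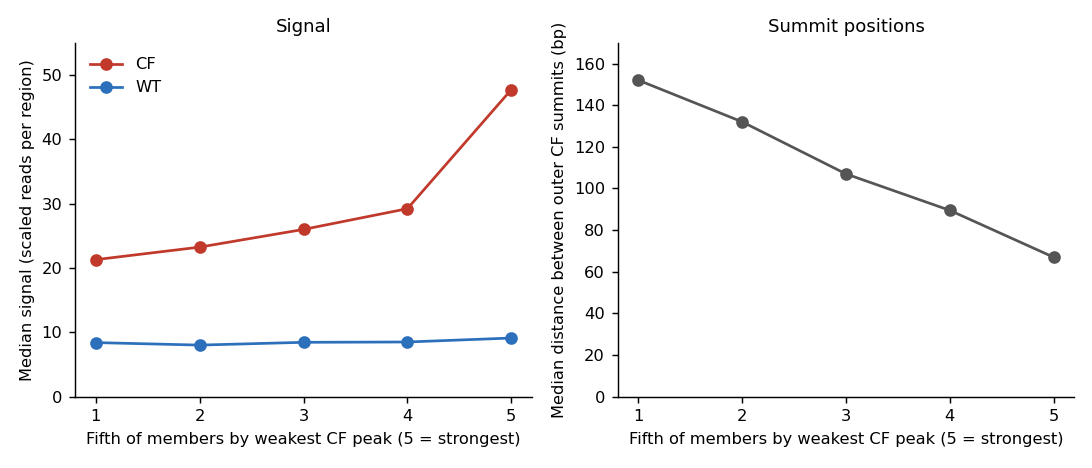
Median signal in scaled reads per region in CF (red) and WT (blue) on the left, and median distance in bp between the outermost summits of the 3 CF lists on the right (y axes), for 5 groups of members ordered by their weakest CF peak (x axis, 852 or 853 regions each). CF signal goes from 21.3 to 47.7 and the summit distance from 152 to 67.0 bp, while WT signal stays between 8.03 and 9.13. The order of the groups and the CF signal come from the same reads.

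Of the 5 members with the highest CF signal, 2 had few reads in WT cultures. The highest CF signal of all lay on GL897166 from 1703343 to 1704468, at 226, 362 and 266 scaled reads in CF1, CF2 and CF3. WT1 to WT4 there held 7.34, 10.7, 3.08 and 1.68 scaled reads, from 5, 12, 1 and 1 reads, with 1 as the minimum. On GL897062, from 408499 to 409323, the signal was 187, 261 and 246 in CF1 to CF3 and 2.93, 2.66, 24.6 and 8.38 in WT1 to WT4. This region also had the strongest weakest peak of all members, with a −log10 q-value of 64.4, 71.5 and 54.6 in the 3 CF lists. Both regions thus stood far above the WT columns, and the log2 differences were 5.62 and 4.91. On GL897386, from 214532 to 214846, the CF mean was 215 and the WT mean 128, and the difference was 0.83. The lowest CF column there, at 181, lay just above the highest WT column, at 175. The other regions among the 5 with the highest CF signal were those on GL898180 and GL897991, where WT was also high.

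Among the 5 largest differences, 3 have not been described so far. On GL897135, from 1421349 to 1422017, the CF columns lay at 126, 125 and 134 scaled reads, and each WT column was at its minimum of 1 read. On GL896928, from 699650 to 700578, the CF columns held 123, 176 and 101 scaled reads. WT1 to WT3 were at the minimum of 1 read there, and WT4 held 9 reads, or 15.1 scaled reads. On GL897100, from 3184136 to 3185649, the CF columns held 194, 221 and 206 scaled reads. WT1 to WT4 held 27.9, 6.22, 3.08 and 1.68 scaled reads there, from 19, 7, 1 and 1 reads, with 1 as the minimum. The log2 differences of these regions were 5.60, 4.97 and 4.91, values that depend on the pseudocount because the WT reads are so few. A single WT column carried most of the WT reads in the last 2 regions, WT4 in one and WT1 in the other.

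The 3 members with the highest fold enrichment in their weakest list had a CF signal near 100 scaled reads and few WT reads. On GL896901, from 19031717 to 19032345, the enrichment was 15.0, 14.1 and 14.4 in lists CF1, CF2 and CF3, with a mean signal of 89.0 ± 6.90 in CF columns (SD, n = 3) against 6.54 ± 4.14 in WT columns (SD, n = 4). On GL897055, from 4707064 to 4707782, it was 12.6, 12.6 and 16.1, and the signal was 105 ± 5.40 in CF (SD, n = 3) against 6.60 ± 3.39 in WT columns (SD, n = 4). On GL896938, from 10324531 to 10325291, it was 12.9, 14.6 and 12.4. The CF columns there held 101, 128 and 103 scaled reads and WT1 to WT4 held 1.47, 4.44, 30.8 and 1.68. These WT values stand for 1, 5, 10 and 1 reads, with 1 as the minimum. All 3 regions were separated from the nearest WT peak by 6460 to 14748 bp.

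Members had a lower median width than regions called in both genotypes. Their width ran from 193 to 1597 bp with a median of 503 bp, against 557 bp over all regions, 863 bp in regions with calls in all 7 lists and 589 bp in those with calls in WT only. The width of a region is the union of its peaks, so it grows with the number of lists that call it, and regions with a peak in only 2 CF lists had a median of 373 bp. At most 300 bp were covered by 268 members (6.29%), with a median CF signal of 15.7 and a log2 difference of 1.20. More than 1 kb was covered by 109 members (2.56%), with a median CF signal of 76.0, a WT signal of 14.0 and a difference of 2.64. In 100 of these 109 wide members (91.7%) all CF columns lay above all WT columns, against 11.5% of all regions. The widest, on GL896941 from 9936830 to 9938426, held 196, 233 and 203 scaled reads in CF1 to CF3 and 19.1, 6.22, 6.15 and 1.68 in WT1 to WT4. The region on GL897100 described above, of 1514 bp, was the next. The third, on GL897286 from 69067 to 70576, held 117 ± 17.1 in CF (SD, n = 3) and 15.3 ± 7.59 in WT columns (SD, n = 4).

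Most members lay near other open chromatin. The nearest other region of any kind was a median of 5.02 kb away, and 783 members (18.4%) had one within 1 kb. For regions with calls in all 7 lists the median was 5.45 kb and for regions with calls in WT only 6.09 kb. A region with calls in all 7 lists lay within 10 kb of 28.6% of the members and within 50 kb of 65.1%. The nearest WT peak stood a median of 4.06 kb from the edge of a member, within 200 bp of 145 members (3.40%) and within 1 kb of 758 (17.8%). The 758 members with a WT peak within 1 kb had a higher WT signal, with a median of 12.3 against 8.02 in the other 3505, and a lower log2 difference, 1.38 against 1.85. Only 105 members (2.46%) had no WT peak within 50 kb. This count can include members on scaffolds without any WT peak, for which no distance exists.

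Members also had members as neighbors. In 674 cases consecutive members on a scaffold lay at most 50 kb apart, which joined 1196 members, 28.1%, into 522 chains. There were 110 chains of at least 3 members and 10 of at least 5, and the largest held 6. The 4485 regions with a single WT call gave 659 such pairs and 26.7% in chains, close to the members, while the less numerous 989 regions with calls in WT only gave 49 pairs and 9.61%. The share in chains rises with the number of regions in a set, so these shares are not comparable between sets of unequal size. Members in chains had a median CF signal of 31.8 and a log2 difference of 1.89, against 26.0 and 1.71 in the other 3067.

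The chain with the most members spanned 71.5 kb of GL896906, from 10181187 to 10252650, where 6 of 8 regions were members. Their log2 differences ran from 1.11 to 3.51. Every CF column lay above every WT column in all 6, against 70.9% of all members and 11.5% of all regions. The strongest of them, from 10235321 to 10235972, held 55.7, 53.7 and 45.5 scaled reads in CF1 to CF3 and 17.6, 4.44, 3.08 and 5.03 in WT1 to WT4. In the same stretch, from 10243232 to 10244122, a region with calls in 3 CF and 3 WT lists had a difference of −0.09. The other region that was no member, from 10241528 to 10241982, had a peak in 1 CF and 1 WT list and a difference of 1.76, within the range of the members. Of the 9 chains with 5 members, the 2 with the shortest span are described. On GL897114, 5 of 7 regions from 737587 to 773599 were members, and the other 2 had a peak in 2 CF lists and no WT list. The member from 762569 to 763268 was the strongest, at 71.4, 77.6 and 78.1 in CF1 to CF3 and 4.40, 5.33, 3.08 and 8.38 in WT1 to WT4. The columns overlapped in 2 of the 5 members. From 764837 to 765253, WT3 reached 27.7 while CF3 lay at 24.2, and from 773088 to 773599 WT3 reached 46.1 while the CF columns lay between 32.1 and 39.3. On GL897026, 5 of 9 regions from 4589243 to 4631233 were members, with differences from 2.60 to 4.25. They stood around a region called in all 7 lists, from 4612934 to 4614100, whose signal was 284, 291 and 243 in CF1 to CF3 and 122, 101, 181 and 70.4 in WT1 to WT4. That shared region also had its CF columns above its WT columns, with a difference of 1.27.

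**Figure D5:**
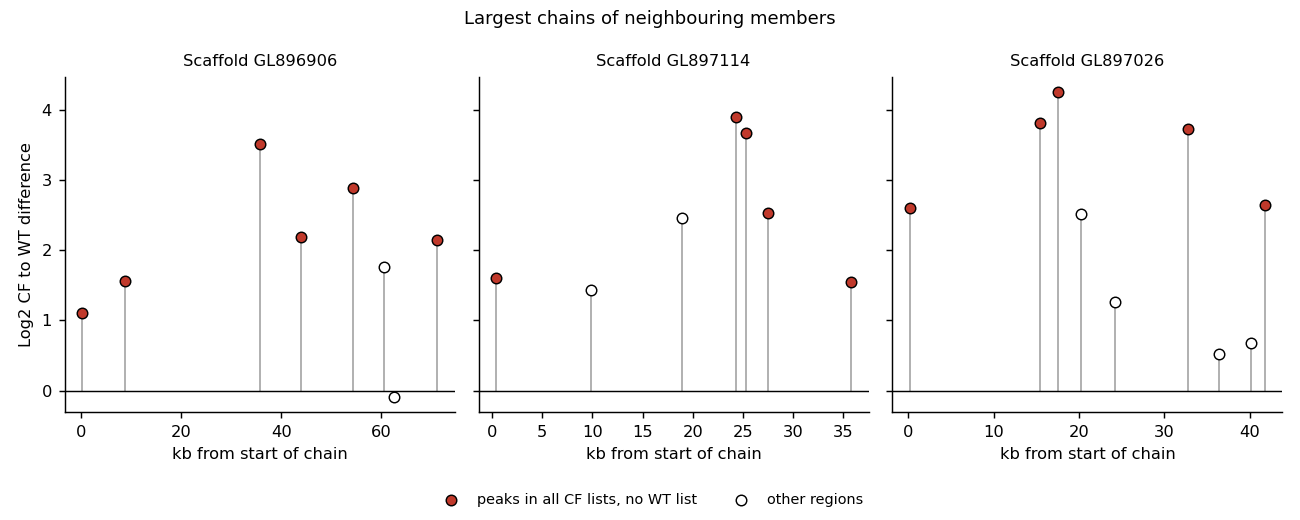
Log2 CF to WT difference (y axis) of every region in the chain of 6 members and in the 2 shortest of the 9 chains of 5, placed by distance in kb from the start of the chain (x axis), with filled points for members and open points for other regions. Member differences run from 1.11 to 3.51 on GL896906, from 1.55 to 3.89 on GL897114 and from 2.60 to 4.25 on GL897026.

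Members were spread over the assembly. They lay on 513 of the 1895 scaffolds that held a region. On the 145 scaffolds with at least 200 regions, members made up a median of 4.45% of the regions, with a range from 1.52% to 7.77%, and none of these scaffolds lacked them. The highest share, on GL896993, came from 16 of 206 regions and the next, 7.41% on GL896919, from 30 of 405. The lowest share was found on GL897046, with 5 of 328 regions. On scaffolds with fewer than 20 regions the share was 4.70%.

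Membership depended on single lists and on what counted as a peak. Of regions with a peak in both other CF lists and no WT list, 73.5% also had one in CF1, 67.3% in CF2 and 51.1% in CF3, against 77.2%, 74.9% and 64.9% of all regions. Of regions with a peak in all CF lists and none of the other 3 WT lists, 19.4% had one in WT1, 6.25% in WT2, 35.1% in WT3 and 17.0% in WT4, against 62.8%, 39.6%, 74.5% and 55.8% of all regions. The order of the WT values was that of the lengths of the lists, from 48417 peaks in WT2 to 89157 in WT3. Without list CF3 8342 regions met the rule, and without list WT3 6564, a rise that follows from dropping a condition. When each list was reduced to its 48417 strongest peaks, 2351 regions met the rule, of which 1170 were among the 4263. When a peak had to cover 50% of the region, 4507 met it, of which 2778 were among the 4263. A limit of 0.01 on the q-value gave 4281 regions, 4190 of them shared.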

How the data were processed

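Bulk ATAC-seq of 3 CF and 4 WT ferret PDE cultures was analyzed. Paired-end reads were trimmed by the authors (Trimmomatic), aligned to the ferret assembly MusPutFur1.0 with Bowtie 2, called peaks per library with MACS2, after removal of duplicates according to the peak names, and built regions with DiffBind. Whether read ends were shifted for transposase binding is not given in the sources used here. As deposited, the matrix holds signal, reads scaled by 1 factor per library, and 100% of values were whole reads within a tolerance of 0.001. The deposited lists give every peak's score, its enrichment (a ratio, or fold, over local background) and the −log10 of its p-value and its q-value. The score repeats the q-value and was not reported.

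Peak starts lay 1 base after matrix starts, and positions are counted from 1. Members were found in Python 3.11.15 and checked with bedtools 2.31.1 (4263 of 4263 shared). Limma 3.58.1 (R 4.3.3) with a mean trend was run on log2(signal + 1) over all 95129 regions, fitting genotype alone, and edgeR 4.0.16 and DESeq2 1.42.0 on recovered reads. Over all regions, limma called 4102 more and 5954 less accessible and edgeR 5143 and 6948. The balance turned with library size scaling (7726 and 3443) and upper-quartile scaling (5739 and 4510). Named regions are the 5 members with the highest CF signal, the 5 with the largest difference, the 5 with the highest WT signal, the 3 widest, the 3 with the highest enrichment in their weakest list and the 3 chains with the most members, ties broken by the shorter span. Members, rules and lists were chosen with earlier results of these data known. Regions are not replicates, so sets of regions were described without a test. No sequence or annotation of MusPutFur1.0 was used here.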

Additional observations from a re-analysis of the deposited data

How the results depend on the processing

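Thinning and the omission of members near a WT peak were added after seeing the data. The number of members was 2351 with lists of equal length, and leaving out a list gave 4547 to 8342. The median log2 difference was 1.30 with a pseudocount of 5, 2.08 with library size scaling, which moved the median of all regions from 0.03 to 0.38, and 1.72 to 1.83 with a column left out. Members without overlap of the columns numbered 3060 to 3441 with a column left out. Leaving out a column can only keep or raise such a count, in the members as in all regions. The matching share of all regions was not computed, so nothing about the members is read from this range. Members at the minimum in every WT column numbered 298 when up to 3 reads were allowed, 288 after thinning and 92 to 223 with a column left out. Members called by limma numbered 661 to 2161 with a column left out, lowest when a CF column was dropped, which leaves 2 CF columns. The share called over all regions ran from 1.43% to 5.35% in these fits. Neighboring members numbered 415 within 25 kb and 1051 within 100 kb, and the widest CF peak in a member had a median width of 450 bp. These counts follow from the settings themselves, and no other cause was tested.

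With replicate number as a block, 1929 members were called in a fit that leaves out WT4, against 1672 without the block in the same columns and 1792 in all 7. The shares called over all regions were 5.46%, 4.24% and 4.31%. Deviations of same-numbered columns correlated at 0.08, 0.07 and −0.02. The same-numbered column was the most similar WT column for CF1 and CF2, while WT2, at 0.03, was so for CF3. With values this small, whether the numbers pair the samples was not settled. In the same order, these fits called 6146, 5365 and 5954 of all regions less accessible, and 0 members. The members were selected on the same contrast, and nothing is read from this 0.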

Other observations

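In 33 members (0.774%) the mean log2 signal was higher in WT than in CF, although peaks had been called only in CF lists. The 3 with the lowest difference, chosen after their values were seen, lay on GL897173 from 1015888 to 1016109, on GL897049 from 3715972 to 3716355 and on GL896923 from 8135847 to 8136225. Their mean signals were 13.1, 24.9 and 15.8 scaled reads in CF and 20.2, 34.3 and 22.4 in WT, with log2 differences of −0.57, −0.45 and −0.34. On GL897049 the signal was 26.7, 19.4 and 28.7 in CF1 to CF3 and 42.6, 31.1, 36.9 and 26.8 in WT1 to WT4, so that the columns overlapped only through WT4. Over the 3 regions together, the CF peaks had a fold enrichment from 3.73 to 6.30.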
